A study of Xenopus laevis with 3 samples.

Results

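Growing oocytes make far more mRNA than they translate at once, and hold the rest in silent particles until maturation or early development. The genes of that store described here are the paired copies of *cpeb1*, *ybx2* and *zar1*, and *eif4enif1.L*, *patl2.L* and *lsm14b.L*. *Xenopus laevis* is an allotetraploid frog, so that many genes exist as an L and an S copy (homeologs) from its parental genomes. The members were chosen by name, and all 9 names were found among the 44454 named features of the count tables. The name *zar1.L* stood on 2 features, XBXL10_1g800 and XBXL10_1g8377, which are kept apart throughout, so that 10 features are described. XBXL10_1g800 was listed between *slc10a4.L* and *fryl.L*, and XBXL10_1g8377 between *brca2.L* and *fry.L*; the RefSeq gene table places *zar1.L* at the former position.

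The study dissociated individual ovaries of wild-type, untreated juvenile *X. laevis* at Nieuwkoop-Faber stages 62 to 66, at the end of metamorphosis, and counted the mRNA molecules of single cells from their 3′ ends. There were 3 biological replicates, ovaries 1, 2 and 3, each with 1 library, and no treated or mutant group. The comparisons are therefore between cell classes within the ovaries, and the question is at which stage of oocyte formation each storage gene is raised. The labels call the cells germline cells, but each library also held somatic cells, which served here as the background.

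In frog oocytes, CPEB1 binds a short U-rich element in the 3′ untranslated region of dormant mRNAs, first holding them silent and later promoting the lengthening of their poly(A) tails. The product of *ybx2*, known in the frog as FRGY2, is a Y-box protein that coats stored mRNA in bulk. Zar1 binds control elements of maternal mRNAs and represses their translation. The product of *eif4enif1*, 4E-T, binds the cap-binding protein eIF4E and keeps it from starting translation, while Pat1a (*patl2*) and Rap55B (*lsm14b*) are found with CPEB and 4E-T in repressed particles.

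The libraries held 5987, 6302 and 6964 barcodes and 54585110, 50307231 and 34060121 unique molecular identifiers (UMIs, 1 for each captured mRNA molecule) in ovaries 1, 2 and 3. After filtering, 5614, 5353 and 6180 cells with 100 to 8000 genes were kept, of which 18.5%, 78.2% and 48.3% were germline cells. Germline cells were divided into 11 clusters without use of the storage genes, and stage names rest on how high the marker list of each stage stood in a cluster. The named classes were germline stem cell (GSC)-like (161 cells), pre-meiotic S-like (684), leptotene-zygotene-like (1308), early diplotene-like (1201) and stage 1 follicle-like (543). Stage 1 follicle-like cells had 4 of the 6 markers of that stage at their highest level among the germline clusters, but none of these was among their 10 leading genes. The early diplotene list stood as high in them (mean log2 excess over the other germline clusters 1.46) as in early diplotene-like cells (1.45). Pre-meiotic S-like cells had 2 of the 6 markers of their stage at the highest level. Cluster 7 (640 cells), led by *cyp26a1.S*, the only marker listed for oogonia, and clusters 3 (913 cells) and 2 (1077 cells), which lay between leptotene-zygotene-like and early diplotene-like cells, were kept by number. Cluster 3 was not called pachytene-like, since *sycp1.L* and *spo11.L*, listed here for leptotene-zygotene cells, stood beside *syce2.L* among its leading genes. The study describes early pachytene by elevated leptotene-zygotene markers, *spo11* among them, together with *syce2*. The pachytene stage is therefore not excluded for cluster 3. A further 337 cells (225, 54 and 58) had more than 8000 genes, with median depths of 80118, 55415.5 and 76237.5 UMIs, and form a class of their own. They were taken by gene number alone; their summed level of 6 stage 1 follicle markers was 12.5 to 19.1 UMIs per 10000, against 0.215 to 2.62 in somatic cells, and that of 4 stromal markers was 0.0231 to 0.117, against 19.9 to 37.6.

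A level below is a gene's UMIs per 10000 UMIs of all cells of a class in 1 ovary, followed by the mean ± SD over ovaries (n = 3). Reads of L and S copies, and of the 2 features named *zar1.L*, can be assigned to the wrong copy where the sequences are alike, so that the division of reads between copies is uncertain. In ovary 3, the summed level of the 5 early diplotene markers in pre-meiotic S-like cells was 8.78, against 2.70 and 2.03 in ovaries 1 and 2, and in somatic cells 10.9, against 1.62 and 3.79. Low levels of oocyte genes in early and somatic cells of ovary 3 are to be read beside these values; the part of such oocyte RNA in the results was not tested.

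All 10 features were higher in germline than in somatic cells in 3 of 3 ovaries. The share of all genes higher in 3 of 3 ovaries was not computed. By a stricter measure, 8 features had every germline level above every somatic one. So did 48.2% of the 23257 genes tested, so that this direction was common. The summed level of the 10 features rose in steps from pre-meiotic S-like to stage 1 follicle-like cells. Their summed level was 6.47 in GSC-like cells, 5.21 in cluster 7 and 6.15 ± 2.62 in pre-meiotic S-like cells. It was 10.1 ± 2.52 in leptotene-zygotene-like cells, 13.1 ± 2.63 in cluster 3, 20.3 ± 1.66 in cluster 2 and 24.5 ± 2.01 in early diplotene-like cells. Of this last value *ybx2.S* made 12.7 and XBXL10_1g8377 3.82. The mean levels of *cpeb1.L*, *cpeb1.S* and *ybx2.L* were lower in early diplotene-like cells than in cluster 3, so that the sum does not describe each feature. Stage 1 follicle-like cells held 31.9, 34.2 and 36.5 in ovaries 1, 2 and 3, and the cells with over 8000 genes 35.8, 31.1 and 37.4. Somatic cells held 1.42, 3.24 and 5.49. The earliest 3 classes differed by less than their spread, as did the last 2, and no ovary of an early class reached the lowest early diplotene-like value.

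**Figure D1:**
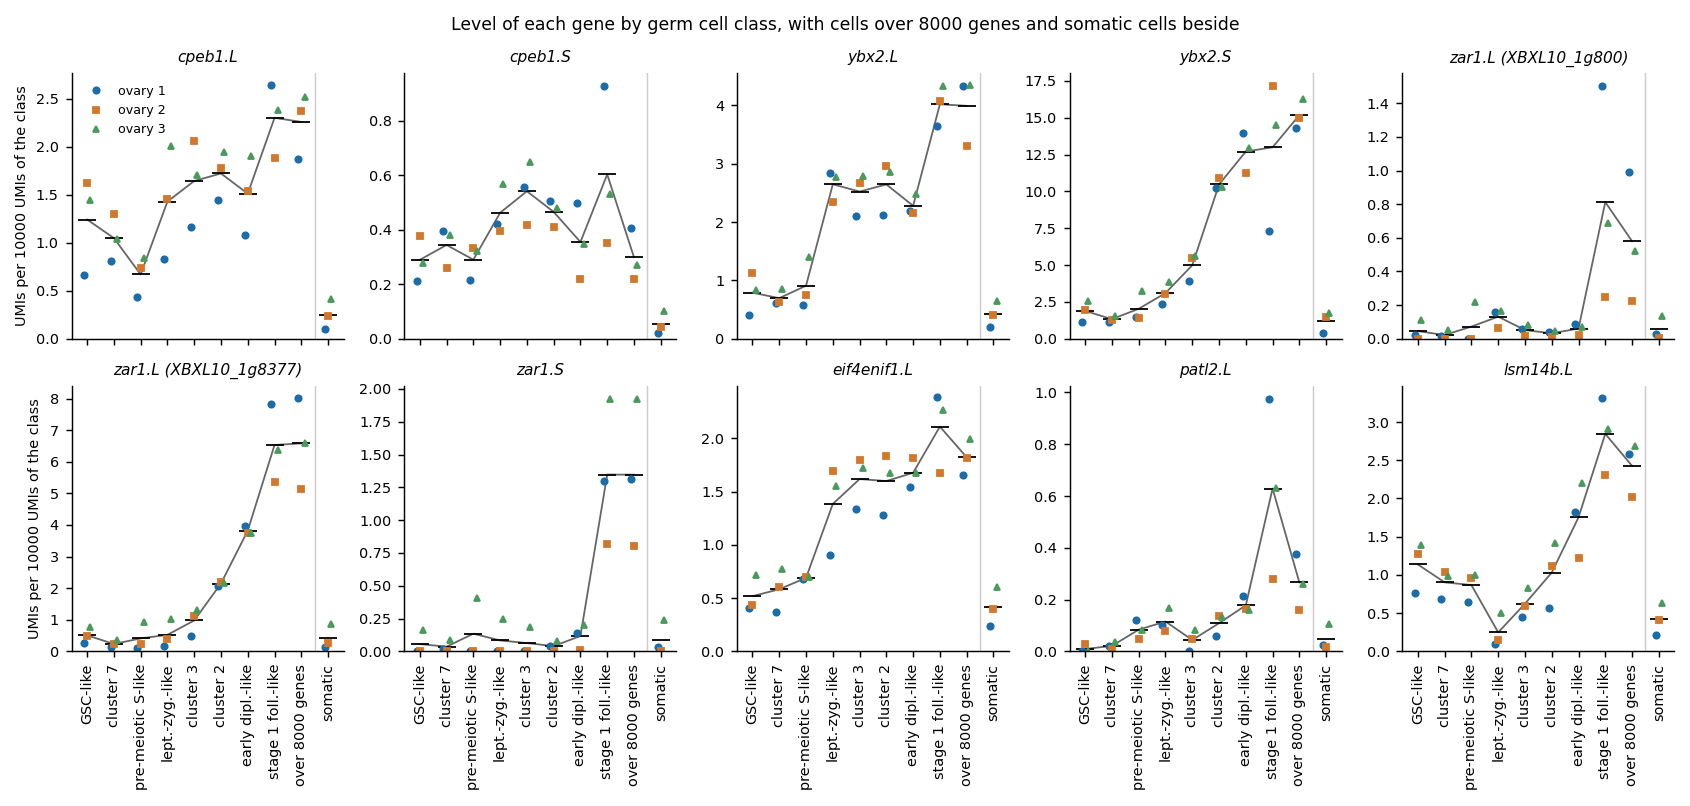
Level of each storage gene (UMIs per 10000 UMIs of the class) in germ cell classes in order of development, in cells with over 8000 genes and in somatic cells. Points are ovaries 1, 2 and 3, and the horizontal bar is their mean; *ybx2.S* goes from 2.03 in pre-meiotic S-like to 12.7 in early diplotene-like cells, while *zar1.S* lies near 0 until the stage 1 follicle-like class.

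In the test of germline against somatic sums, 8 of the 10 features were called higher and 0 lower, where 21.9% of the 23257 genes tested were called higher and 27.7% lower (edgeR quasi-likelihood test, Benjamini-Hochberg adjusted p under 0.05). *cpeb1.L* stood at 1.61, 1.63 and 2.10 in the germline of ovaries 1, 2 and 3 and at 0.101, 0.237 and 0.409 in somatic cells, a log2 difference of 2.18 (SE 0.47, adjusted p = 0.00701). *ybx2.S* stood at 5.55, 10.0 and 11.8 against 0.419, 1.46 and 1.76 (log2 difference 2.28, SE 0.56, adjusted p = 0.0115). For both genes the lowest germline value lay above the highest somatic value, as it did for 8 features and for 48.2% of all genes tested. *cpeb1.S* (2.48, adjusted p = 0.00782), *zar1.L* on XBXL10_1g8377 (2.45, adjusted p = 0.0129), *patl2.L* (2.10, adjusted p = 0.0415) and *ybx2.L* (2.00, adjusted p = 0.00733) differed by a like amount, and *lsm14b.L* (1.38, adjusted p = 0.0309) and *eif4enif1.L* (1.37, adjusted p = 0.0162) by less. The features that missed the threshold were *zar1.L* on XBXL10_1g800 (log2 difference 1.88, SE 1.12, adjusted p = 0.192) and *zar1.S* (1.94, SE 1.27, adjusted p = 0.232). Their groups overlapped because the somatic value of ovary 3 lay above the germline value of ovary 2. Germline sums pool stages in unequal parts. Stage 1 follicle-like cells gave 2693202 of 7369330 UMIs in ovary 1, 2028148 of 37566597 in ovary 2 and 8502358 of 19775771 in ovary 3. In ovary 2 *zar1.S* stood at 0.818 in stage 1 follicle-like cells and at 0.0516 in the germline sum. The part of this mix in the missed calls was not tested. With the ovary as a block XBXL10_1g800 and *zar1.S* were called as well, at 2.15 (adjusted p = 0.0116) and 2.41 (adjusted p = 0.00154). Without ovary 1 the count fell to 5, with XBXL10_1g8377 at adjusted p = 0.0574, *patl2.L* at 0.234 and *lsm14b.L* at 0.111. Without ovary 3 it was again 5, with *ybx2.S* at adjusted p = 0.0642, *eif4enif1.L* at 0.0512 and *lsm14b.L* at 0.0690. Without ovary 2, *eif4enif1.L* (adjusted p = 0.0685) and *lsm14b.L* (0.0502) missed the threshold and XBXL10_1g800 passed it (0.0488). With the storage genes allowed among the clustering genes, *patl2.L* missed the threshold (adjusted p = 0.0510).

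Along the germ cell stages, 5 steps were tested in order, each with 3 sums against 3. Cluster 2 was in none of them. The early diplotene-like step, taken from cluster 3, thus also spans any change at cluster 2. From pre-meiotic S-like to leptotene-zygotene-like cells, 3 of the 7 features that passed the filter on low counts were called higher and 1 lower, where 16.2% of 9674 genes were called higher and 16.7% lower. The ranges of the classes did not overlap for 3 features that were higher and 1 that was lower (27.6% and 18.5% of genes). From leptotene-zygotene-like cells to cluster 3, 2 of 7 were higher and 0 lower (7.98% and 8.48% of 11522 genes), and the ranges of 1 did not overlap (18.9% of genes higher). Without ovary 2 these counts were 1 higher and 0 lower at the first step and 0 at the next, which gave 1 without ovary 1 or ovary 3. From cluster 3 to early diplotene-like cells, 5 of 10 were higher and 0 lower (23.3% and 20.8% of 15081 genes), with ranges that did not overlap for 4 (12.4% of genes higher). From there to stage 1 follicle-like cells 5 of 10 were higher and 0 lower (6.94% and 4.38% of 15258 genes), with ranges that did not overlap for 6 (9.99% of genes higher). With the ovary as a block, 8 were called higher at each of these last steps, where 30.9% of all genes were called higher at the former and 14.1% at the latter. Between stage 1 follicle-like cells and the cells with over 8000 genes, 0 of 10 features and 0.0% of 14164 genes were called by edgeR, with 509 genes and 2 of the features at an unadjusted p under 0.05, and DESeq2 called 0 as well. With the block 2 features (*patl2.L* and *cpeb1.S*) and 7.32% of genes were called lower there. At that step the ranges of all 10 features overlapped, where 2.83% of genes lay higher and 8.02% lower without overlap. The step to stage 1 follicle-like cells was the least firm, since no gene of the whole table was called without ovary 1, without ovary 3, or with germline cells divided more finely (clustering resolution 1.0, in place of 0.5), and without ovary 2 the call was kept by 3 features (XBXL10_1g800, *zar1.S* and *patl2.L*).

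The fitted changes depend on how the sums are scaled. Scaling by total counts in place of edgeR's trimmed means moved the median change of all genes by 0.73 on the log2 scale between germline and somatic cells, 0.18 at the leptotene-zygotene-like step, 0.01 at cluster 3, -0.66 at the early diplotene-like step, -0.27 at stage 1 follicle-like cells and -0.16 in cells with over 8000 genes. The share of calls that were higher went from 44.1% to 69.1% between germline and soma, from 49.3% to 64.4% at the leptotene-zygotene-like step, from 52.8% to 19.6% at the early diplotene-like step and from 61.3% to 34.7% at stage 1 follicle-like cells. Levels per 10000 are on the total-count scale, and log2 changes on the trimmed-mean scale unless stated.

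**Figure D2:**
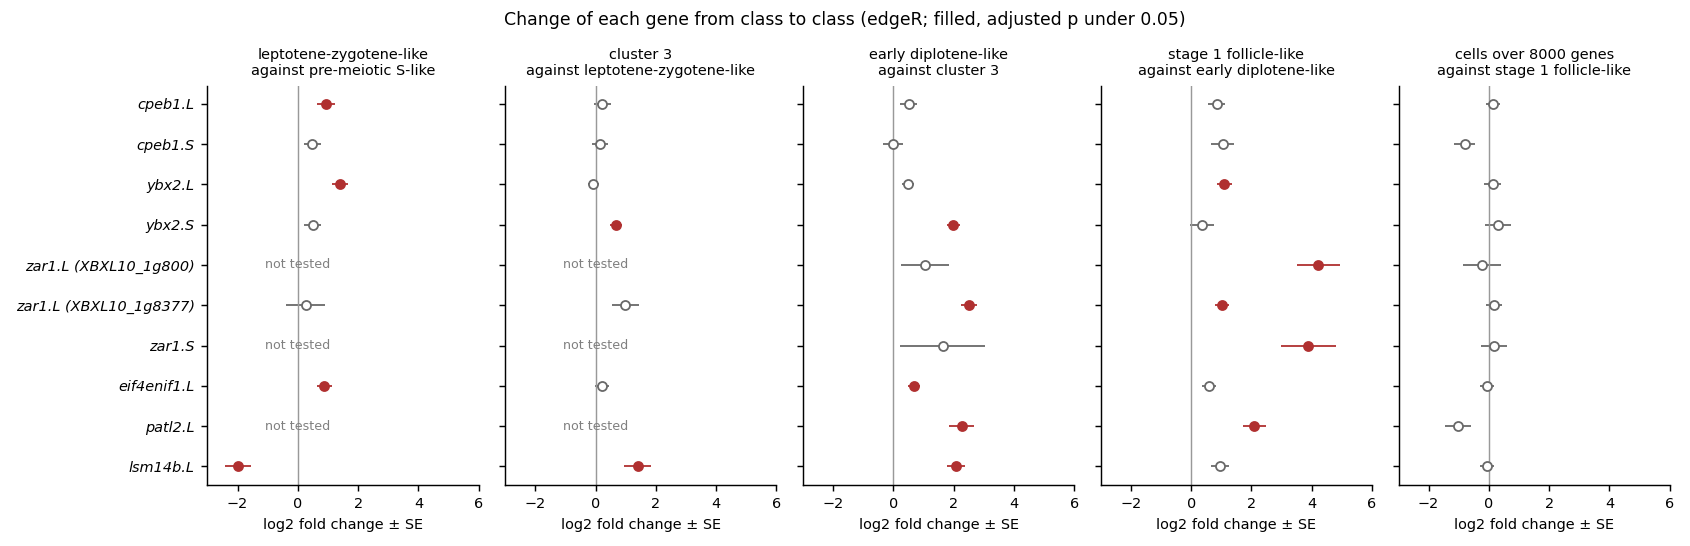
Fitted log2 change of each storage gene at the 5 steps tested from pre-meiotic S-like cells to cells with over 8000 genes, with bars of 1 SE. Filled points passed the adjusted p threshold of 0.05. Cluster 2 was not tested, and the early diplotene-like step is taken from cluster 3. The filled points of *ybx2.S* (1.99) and *zar1.L* on XBXL10_1g8377 (2.50) lie at the early diplotene-like step, and those of XBXL10_1g800 (4.22) and *zar1.S* (3.89) at the step to stage 1 follicle-like cells.

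Of the mRNA-binding repressors, *cpeb1.L* was present in every class. Its level was 0.663, 1.62 and 1.44 in GSC-like cells of ovaries 1, 2 and 3, and 0.430, 0.741 and 0.835 in pre-meiotic S-like cells. In leptotene-zygotene-like cells it was 0.825, 1.45 and 2.01, higher than in pre-meiotic S-like cells of each ovary, although ovary 1 overlapped with the earlier range. The change was called (log2 0.94, SE 0.31, adjusted p = 0.0348), and was lost without ovary 2 (adjusted p = 0.145), without ovary 3 (0.146) and in DESeq2 (0.0540). It was also lost at resolution 1.0 (log2 0.70, adjusted p = 0.124) and with the storage genes allowed among the clustering genes (log2 0.39, adjusted p = 0.211), so that 6 of 11 alternatives called it. Cluster 3 (1.64 ± 0.448), cluster 2 (1.72 ± 0.257) and early diplotene-like cells (1.51 ± 0.413) differed by less than their spread. Early diplotene-like against cluster 3 gave a log2 change of 0.50 (SE 0.27, adjusted p = 0.161; with the block 0.50, adjusted p = 0.0223), which became -0.17 when the sums were scaled by total counts. In stage 1 follicle-like cells *cpeb1.L* stood at 2.64, 1.88 and 2.38 (log2 change 0.85, SE 0.28, adjusted p = 0.0794; with the block 0.88, adjusted p = 0.0181), and in cells with over 8000 genes at 1.87, 2.38 and 2.52.

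The other copy, *cpeb1.S*, had a low level in all stages. It stood at 0.215, 0.331 and 0.323 in pre-meiotic S-like cells, at 0.556, 0.417 and 0.649 in cluster 3 and at 0.496, 0.219 and 0.348 in early diplotene-like cells, lower than in cluster 3 in 3 of 3 ovaries with overlapping ranges (log2 change -0.022, adjusted p = 0.967; on total counts -0.70, adjusted p = 0.0949). No step was called for it in edgeR without the block and with the filter on low counts. It stood at 0.928, 0.350 and 0.529 in stage 1 follicle-like cells, above early diplotene-like cells in 3 of 3 ovaries (log2 change 1.05, SE 0.38, adjusted p = 0.104; with the block 0.99, adjusted p = 0.00446; without the filter 1.02, adjusted p = 0.0285). In cells with over 8000 genes it was 0.406, 0.219 and 0.270, below the stage 1 follicle-like value of the same ovary each time (log2 change -0.80, SE 0.35, adjusted p = 0.896; with the block -0.80, adjusted p = 0.00349). The ranges of these classes overlapped at both steps.

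*ybx2.S*, the S copy of the Y-box protein that packages stored mRNA, was called higher at cluster 3 and at the early diplotene-like step. It stood at 1.44, 1.39 and 3.26 in pre-meiotic S-like cells of ovaries 1, 2 and 3, and at 2.37, 3.05 and 3.87 in leptotene-zygotene-like cells higher in 3 of 3 ovaries (log2 change 0.49, SE 0.29, adjusted p = 0.219). That step was called in 4 of 11 alternatives, with the block (0.55, adjusted p = 0.00229), without ovary 3 (0.82, adjusted p = 0.0366), at resolution 1.0 (1.19, adjusted p = 0.0109) and with the storage genes allowed among the clustering genes (0.97, adjusted p = 0.00622). Cluster 3 held 3.89, 5.48 and 5.60, all above the leptotene-zygotene-like values of 3 ovaries, with a called change of 0.67 (SE 0.20, adjusted p = 0.0439). That call was lost without ovary 2 (adjusted p = 0.345) or ovary 3 (0.184) and with the storage genes allowed (0.0612). In cluster 2 the level was 10.2, 10.9 and 10.3, and in early diplotene-like cells 13.9, 11.2 and 12.9, with no overlap with cluster 3. The change from cluster 3 to early diplotene-like cells (log2 1.99, SE 0.22, adjusted p = 8.61e-05) was called in all 11 alternatives run for that step. Thereafter the ovaries parted, with 7.33, 17.2 and 14.5 in stage 1 follicle-like cells, and no change was called (log2 0.35, SE 0.41, adjusted p = 0.603). The cells with over 8000 genes held 14.3, 15.0 and 16.3.

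*ybx2.L* moved earlier and less. From 0.583, 0.741 and 1.40 in pre-meiotic S-like cells it was raised to 2.84, 2.34 and 2.77 in leptotene-zygotene-like cells, a change without overlap (log2 1.41, SE 0.27, adjusted p = 0.00192) that was called in all 11 alternatives. From there to early diplotene-like cells (2.20, 2.16 and 2.47) its level stayed within 2.11 to 2.96 in every ovary and class. The early diplotene-like step gave a log2 change of 0.49 (SE 0.20, adjusted p = 0.0668; with the block 0.47, adjusted p = 0.0175), and -0.19 on total counts. A further rise was called in stage 1 follicle-like cells, with 3.65, 4.08 and 4.33 (log2 1.10, SE 0.26, adjusted p = 0.0325), a call that was lost when any of the ovaries was left out and at resolution 1.0 (adjusted p = 0.121). Cells with over 8000 genes stood at 4.33, 3.30 and 4.34.

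The 3 features that bear the name of *zar1*, the zygote arrest gene, differed in timing. XBXL10_1g8377 does not lie where the RefSeq gene table places *zar1.L*. Whether its levels are those of *zar1* is therefore uncertain. XBXL10_1g8377 stood at 0.0921, 0.221 and 0.916 in pre-meiotic S-like cells and at 0.161, 0.396 and 1.01 in leptotene-zygotene-like cells, with ovary 3 highest in each (log2 change 0.26, adjusted p = 0.793). In cluster 3 it was 0.50, 1.13 and 1.30, higher than before in each ovary (log2 change 0.98, SE 0.45, adjusted p = 0.151; with the block 1.02, adjusted p = 5.69e-05; without the filter 1.10, adjusted p = 0.00553). It then stood at 2.08, 2.20 and 2.16 in cluster 2 and at 3.97, 3.73 and 3.76 in early diplotene-like cells. The step from cluster 3 to early diplotene-like cells (log2 2.50, SE 0.27, adjusted p = 8.15e-05) was called in all 11 alternatives, and the 3 ovaries of each class lay far apart from those of the other. Stage 1 follicle-like cells held 7.84, 5.36 and 6.38 (log2 change 1.03, SE 0.24, adjusted p = 0.0311; lost when any of the ovaries was left out, without the filter (0.0640), at resolution 1.0 (0.0713) and on total counts (0.051)), and cells with over 8000 genes 8.0, 5.14 and 6.60.

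XBXL10_1g800 and *zar1.S* were first called higher at the step to stage 1 follicle-like cells, and both varied between ovaries. Neither passed the filter on low counts at the leptotene-zygotene-like step or at cluster 3, so that no call could be made there with the filter. That timing depended on how germline cells were divided. At resolution 1.0 both were called 1 step earlier, at early diplotene-like cells (XBXL10_1g800 log2 2.57, adjusted p = 0.0391, against 1.05 at resolution 0.5; *zar1.S* log2 3.62, adjusted p = 0.0462), and neither was called at stage 1 follicle-like cells (2.83, adjusted p = 0.0646, and 2.00, adjusted p = 0.156). XBXL10_1g800 had 5, 41 and 38 UMIs in early diplotene-like cells of ovaries 1, 2 and 3, levels of 0.0886, 0.0222 and 0.0693. Its levels in leptotene-zygotene-like cells were 0.161, 0.0660 and 0.166 (8, 10 and 12 UMIs), higher than these in each ovary. In stage 1 follicle-like cells its levels were 1.5, 0.247 and 0.687, without overlap (log2 change 4.22, SE 0.72, adjusted p = 0.0149; lost without ovary 1 or ovary 3). *zar1.S* had no UMI in pre-meiotic S-like, leptotene-zygotene-like and cluster 3 cells of ovaries 1 and 2, which allows levels of up to 0.0921 and 0.0473, 0.0603 and 0.0198, and 0.167 and 0.00913. In ovary 3, with the higher oocyte marker level given above, it stood at 0.404, 0.249 and 0.189 in these classes. Early diplotene-like cells held 0.142, 0.0108 and 0.199 of *zar1.S* (log2 change from cluster 3 1.63, SE 1.41, adjusted p = 0.372; with the block 1.40, adjusted p = 0.0265; without the filter 1.67, adjusted p = 0.0153). Stage 1 follicle-like cells held 1.30, 0.818 and 1.93, all above the early diplotene-like range (log2 change 3.89, SE 0.91, adjusted p = 0.0317; lost without ovary 1 or ovary 3). In cells with over 8000 genes XBXL10_1g800 stood at 0.993, 0.225 and 0.522 and *zar1.S* at 1.31, 0.804 and 1.92, so that ovary 2 was lowest for both features and the order of the ovaries was that of the stage 1 follicle-like class.

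Among the partner proteins, *eif4enif1.L* (4E-T) rose at the leptotene-zygotene-like step, and its change at the early diplotene-like step depended on the scaling. It stood at 0.675, 0.693 and 0.700 in pre-meiotic S-like cells and at 0.905, 1.70 and 1.55 in leptotene-zygotene-like cells of ovaries 1, 2 and 3, without overlap (log2 change 0.88, SE 0.24, adjusted p = 0.0157). The call was lost without ovary 2 (adjusted p = 0.166) or ovary 3 (0.108). Cluster 3 held 1.33, 1.79 and 1.72 and early diplotene-like cells 1.54, 1.81 and 1.67, ranges that overlap. A change was called there on the trimmed-mean scale (log2 0.67, SE 0.19, adjusted p = 0.0167). It was called in 7 of 11 alternatives, among them the block (0.67, adjusted p = 0.00113). The change was 0.01 on total counts (adjusted p = 0.986), 0.43 with the sums thinned to equal depth (0.140), and 0.60 without ovary 2 (0.107) or ovary 3 (0.203). Stage 1 follicle-like cells held 2.38, 1.68 and 2.27 (log2 change 0.59, SE 0.22, adjusted p = 0.118) and cells with over 8000 genes 1.65, 1.82 and 1.99.

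*patl2.L*, the gene of the oocyte Pat1 protein, was rare before diplotene. It had 4, 3 and 3 UMIs in pre-meiotic S-like cells, was not tested at the first 2 steps, and stood at 0, 0.0487 and 0.0827 in cluster 3, where the count of 0 in ovary 1 allows a level of up to 0.167. In leptotene-zygotene-like cells its levels were 0.101, 0.0792 and 0.166 (5, 12 and 12 UMIs), a range that overlapped with that of early diplotene-like cells. In early diplotene-like cells it stood at 0.213, 0.162 and 0.159, above cluster 3 in 3 of 3 ovaries (log2 change 2.26, SE 0.43, adjusted p = 0.00174; called in all 11 alternatives). It was 0.977, 0.281 and 0.629 in stage 1 follicle-like cells, a further called change (log2 2.10, SE 0.38, adjusted p = 0.0177; lost without ovary 1 or ovary 3, and 0.0508 at resolution 1.0). The cells with over 8000 genes held 0.378, 0.159 and 0.262, lower than stage 1 follicle-like cells in each ovary (log2 change -1.02, SE 0.43, adjusted p = 0.896; with the block -1.02, adjusted p = 0.000179). Both *patl2.L* and *cpeb1.S* were thus called lower at this step with the block alone, and their classes overlapped.

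*lsm14b.L*, which encodes Rap55B, fell at the leptotene-zygotene-like step before it rose. It was the only member called lower at a tested step in edgeR without the block and with the filter on low counts. Pre-meiotic S-like cells held 0.645, 0.961 and 0.997 and leptotene-zygotene-like cells 0.101, 0.145 and 0.498 in ovaries 1, 2 and 3, and the ranges did not overlap (log2 change -1.99, SE 0.43, adjusted p = 0.00452). This fall was called in 10 of 11 alternatives, and missed without ovary 2 (log2 -1.47, adjusted p = 0.101). In cluster 3 the level was back at 0.444, 0.597 and 0.827 (log2 change 1.39, SE 0.44, adjusted p = 0.0485). That call was lost without ovary 1 (adjusted p = 0.105), without ovary 2 (0.306), at resolution 1.0 (0.0770) and on total counts (0.0541). Cluster 2, which was not tested, held 0.564, 1.11 and 1.41, above cluster 3 in each ovary. Its range overlapped with those of cluster 3 and of early diplotene-like cells. Early diplotene-like cells held 1.83, 1.23 and 2.21, all above cluster 3 (log2 change 2.09, SE 0.30, adjusted p = 0.000367; called in all 11 alternatives). Stage 1 follicle-like cells stood at 3.31, 2.31 and 2.91, above early diplotene-like cells without overlap (log2 change 0.95, SE 0.29, adjusted p = 0.0681; with the block 0.99, adjusted p = 0.0105; in DESeq2 0.96, adjusted p = 0.0428), and cells with over 8000 genes at 2.58, 2.01 and 2.68. GSC-like cells, with 0.757, 1.27 and 1.38, overlapped with pre-meiotic S-like cells.

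The UMIs of a gene per cell depend on both its level and the depth of the cell. *ybx2.S* had on average 0.387 UMIs per pre-meiotic S-like cell, 23.9 per early diplotene-like cell and 33.0 per stage 1 follicle-like cell. The cells with over 8000 genes had 191, 96.4 and 137 in ovaries 1, 2 and 3. XBXL10_1g8377 went from 0.0727 through 7.21 and 15.5 to 65.3 UMIs per cell over the same classes, and *lsm14b.L* from 0.169 through 3.26 and 6.79 to 23.4. *patl2.L* and *cpeb1.S* ended with 2.76 and 3.04 per cell, more than the 1.44 and 1.38 of stage 1 follicle-like cells, although their levels per 10000 were lower there. Somatic cells had 0.390 UMIs of *ybx2.S* per cell and 0.0130 to 0.133 of the other features. Depth differed between these classes. The median of total UMIs per ovary was 1586 to 2399.5 in pre-meiotic S-like and 13950 to 20106 in early diplotene-like cells. It was 17600 to 21854 in stage 1 follicle-like cells and 55415.5 to 80118 in cells with over 8000 genes. The last class was taken by gene number, which favours deep cells, so that its high UMIs per cell follow in part from that choice.

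**Figure D3:**
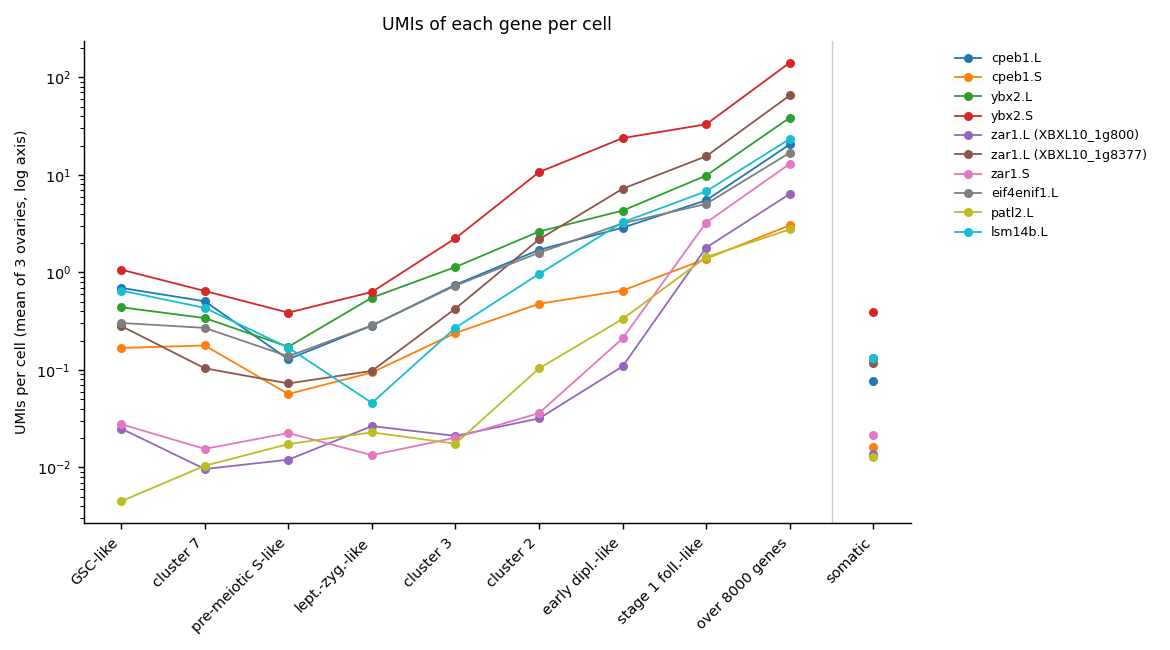
Mean UMIs per cell of each storage gene (log axis) in germ cell classes, cells with over 8000 genes and somatic cells; each point is the mean of ovaries 1, 2 and 3. *ybx2.S* climbs from 0.387 in pre-meiotic S-like cells to 142 in cells with over 8000 genes.

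Shares of cells with a UMI were compared after thinning each cell to 1000 UMIs. *ybx2.S* was seen in 14.3%, 12.5% and 25.6% of pre-meiotic S-like cells of ovaries 1, 2 and 3, in 75.1%, 66.3% and 68.7% of early diplotene-like cells, and in 65.2%, 75.3% and 76.5% of cells with over 8000 genes. The somatic shares were 4.10%, 8.42% and 17.1%. Each early diplotene-like value was above every somatic and pre-meiotic S-like value. For XBXL10_1g8377 the pre-meiotic S-like shares (0.370%, 2.05% and 9.31%) lay below the somatic ones (1.74%, 1.30% and 9.47%) in ovaries 1 and 3 and above in ovary 2, against 33.8%, 29.6% and 28.9% in early diplotene-like cells. *zar1.S* was seen in 12.4%, 7.20% and 17.2% of stage 1 follicle-like cells and in 0.342%, 0.0581% and 2.85% of somatic cells. Without thinning, *ybx2.S* was seen in 27.2%, 22.1% and 37.4% of pre-meiotic S-like, 100% of early diplotene-like and 12.6%, 25.6% and 29.5% of somatic cells, XBXL10_1g8377 in 2.21%, 3.99% and 13.1% of pre-meiotic S-like cells, 93.9%, 98.2% and 94.9% of early diplotene-like and 4.87%, 7.12% and 16.7% of somatic cells, and *zar1.S* in 81.0%, 61.6% and 94.0% of stage 1 follicle-like and 1.09%, 0.172% and 5.04% of somatic cells. Cells under 1000 UMIs were left out of the thinned shares, which kept 104 of 136, 306 of 326 and 197 of 222 pre-meiotic S-like cells and 4236 of 4576, 1041 of 1165 and 2733 of 3196 somatic cells.

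Within the cells with over 8000 genes, 6 features (*cpeb1.L*, *ybx2.L*, *ybx2.S*, XBXL10_1g8377, *eif4enif1.L* and *lsm14b.L*) had a UMI in 100% of cells of each ovary. These cells were chosen for their number of genes seen. The share of all genes seen in every such cell was not computed, so that this count does not set the features apart. The other features were seen less evenly, XBXL10_1g800 in 87.1%, 22.2% and 67.2% of cells, *zar1.S* in 89.8%, 46.3% and 93.1%, *patl2.L* in 92.0%, 59.3% and 75.9%, and *cpeb1.S* in 95.6%, 72.2% and 84.5%. In somatic cells, at median depths of 2512, 2888 and 1580 UMIs, *cpeb1.S* was seen in 0.765%, 1.80% and 2.22%. Ovary 2, whose large cells were the shallowest, had the lowest share for all 4.

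The levels also differed with the depth of these large cells. Cells were divided at 50000 and 100000 UMIs, which gave 39, 102 and 84 cells in ovary 1 from shallow to deep, 21, 27 and 6 in ovary 2, and 12, 28 and 18 in ovary 3. In ovary 1 the level of *cpeb1.S* was 0.750, 0.685 and 0.282 from shallow to deep, that of *patl2.L* 0.720, 0.630 and 0.263, and that of *eif4enif1.L* 2.23, 2.12 and 1.45. For these 3 genes the deepest cells had the lowest level in each ovary. *ybx2.L* went the other way, with 3.26, 3.43 and 4.73, and so did *ybx2.S*, with 8.89, 10.6 and 16.0. The order of both *ybx2* copies was the same in ovaries 2 and 3, where the deepest bins hold only 6 and 18 cells and the shallowest of ovary 3 only 12. No test was made within these cells, since the cells of an ovary share a source.

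The division of UMIs between the L and S copies also differed between classes. The S copy gave 68.8% ± 3.18 of the *ybx2* UMIs in pre-meiotic S-like cells, and 45.6%, 56.5% and 58.3% in leptotene-zygotene-like cells of ovaries 1, 2 and 3. It gave 66.3% ± 1.28 in cluster 3, 79.9% ± 2.50 in cluster 2 and 86.4%, 83.9% and 83.9% in early diplotene-like cells. Thus the S share was lowest in leptotene-zygotene-like cells, where *ybx2.L* had already risen, and the values of that class and of early diplotene-like cells did not overlap. Of the *cpeb1* UMIs the S copy gave 30.7% ± 2.72 in pre-meiotic S-like cells, 19.8% ± 10.2 in early diplotene-like cells and 17.8%, 8.44% and 9.68% in cells with over 8000 genes. The pre-meiotic S-like mean was the highest along the stages, since the S copy gave 19.8% ± 4.17 in GSC-like cells and 25.4% ± 8.19 in cluster 7. In early diplotene-like cells of ovary 1 it gave 31.5%. Of the UMIs of *zar1.S* and XBXL10_1g800 together, *zar1.S* gave 46.3%, 76.9% and 73.7% in stage 1 follicle-like cells and 56.9%, 78.2% and 78.6% in cells with over 8000 genes. These shares were not tested, and they depend on how well each copy's 3′ end is annotated.

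**Figure D4:**
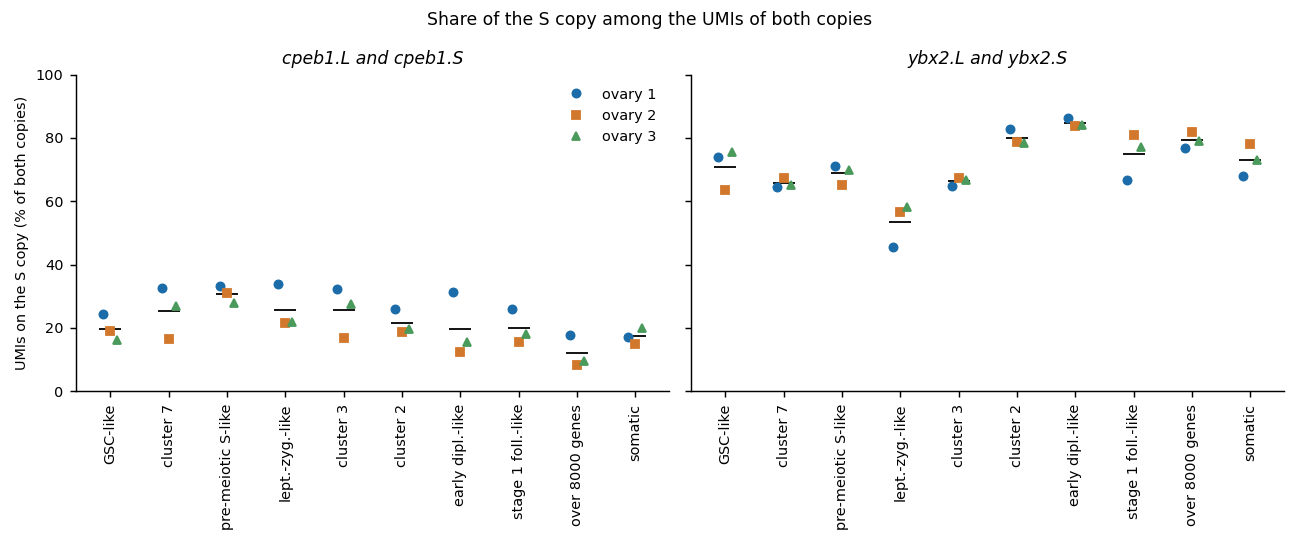
Share of UMIs from the S copy (percent) for *cpeb1* and *ybx2* by cell class; points are ovaries 1, 2 and 3, and the bar is their mean. For *ybx2* the share falls to a mean of 53.5% in leptotene-zygotene-like cells and is 84.7% in early diplotene-like cells.

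Somatic cells were not free of storage gene UMIs, and ovary 3 had the most. As a percentage of the level in the cells with over 8000 genes of the same ovary, the somatic level of *ybx2.S* was 2.93%, 9.73% and 10.8% in ovaries 1, 2 and 3, and that of *eif4enif1.L* 14.3%, 21.9% and 30.2%. For the oocyte gene *zp4.L*, which encodes an egg coat protein, the values were 2.00%, 0.748% and 10.8%, and for *bmp15.L*, an oocyte growth factor, 1.57%, 1.65% and 13.7%. All 10 features and all 6 oocyte genes compared had their highest percentage in ovary 3. In ovary 1 both *ybx2* copies (2.93% and 4.58%), *zar1.S* (2.33%), XBXL10_1g800 (2.59%) and XBXL10_1g8377 (1.88%) lay in the range of the oocyte genes (1.57% to 4.78%), and *eif4enif1.L* (14.3%), *lsm14b.L* (8.44%), *patl2.L* (6.18%), *cpeb1.L* (5.40%) and *cpeb1.S* (5.16%) lay above it. The highest oocyte value in ovary 1 was that of *velo1.L*, and the next was 2.92% (*42sp43.L*). In ovary 2 the oocyte genes lay at 0.748% to 2.85%. XBXL10_1g800 (2.66%) lay in that range, *zar1.S* (0.496%) below it and the other features above it, among them *ybx2.S* (9.73%), *ybx2.L* (12.5%) and XBXL10_1g8377 (4.93%). In ovary 3 *cpeb1.S* (38.1%) and *patl2.L* (40.4%) lay above the oocyte range (8.48% to 35.7%) and the other features in it. The highest oocyte value was again that of *velo1.L*, and the next was 13.7% (*bmp15.L*). Between these values lay *eif4enif1.L* (30.2%), XBXL10_1g800 (25.4%), *lsm14b.L* (23.7%), *cpeb1.L* (16.2%) and *ybx2.L* (15.0%). XBXL10_1g8377 (13.1%), *zar1.S* (12.3%) and *ybx2.S* (10.8%) lay below 13.7%. Whether the somatic UMIs came from free oocyte RNA or from somatic cells was not tested.

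**Figure D5:**
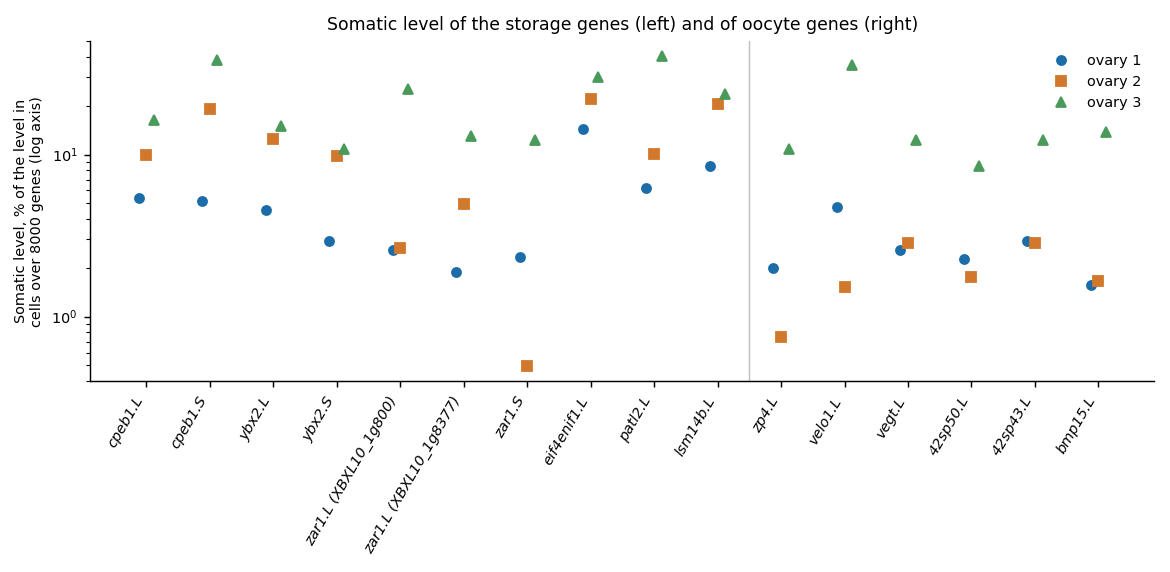
Somatic level of each storage gene and of 6 oocyte genes as a percentage (log axis) of its level in cells with over 8000 genes of the same ovary; points are ovaries 1, 2 and 3. Ovary 3 is highest for every gene shown, and *eif4enif1.L* has the highest value in ovary 1 (14.3%).

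The storage genes were set beside 129 other features of the same processes in 4 lists: further parts of repression complexes, cytoplasmic polyadenylation, deadenylation and decapping, and other maternal RNA-binding proteins. Between germline and somatic cells, 50 of 128 tested were higher and 17 lower, where 21.9% of all genes tested were higher and 27.7% lower. The median log2 change of the listed features was 0.70 against 0.07 over all genes, and on total counts 87 were higher and 7 lower. Without ovary 1, 2 or 3 the calls were 23, 30 and 16 higher and 10, 12 and 6 lower. *dnd1.L*, a germ plasm RNA-binding protein, was higher in the germline (log2 3.35, SE 0.50, adjusted p = 0.00133), as was *elavl2.S* (2.71, SE 0.46, adjusted p = 0.00233). *msi2.L*, a Musashi protein, was lower (-3.77, SE 0.38, adjusted p = 0.000286), and so was *zfp36l1.S* of the mRNA decay factors (-3.43, SE 0.83, adjusted p = 0.0108; 0.0574 without ovary 1 and 0.0764 without ovary 3).

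At the leptotene-zygotene-like step 5 of 95 features of these lists were higher, 22 lower and 68 not called (median log2 change -0.20, against 0.00 over all genes). Of all genes tested 16.2% were higher and 16.7% lower. The cytoplasmic polyadenylation list had 2 of 11 higher, near the share of all genes, and 0 lower, with a median of 0.27. Without ovary 2 there were 0 higher and 11 lower, without ovary 3 there were 3 and 12, and with the block 10 and 28. The RNA-binding protein genes *cirbp.L* (26.9 to 9.07 per 10000, log2 -1.71, SE 0.22, adjusted p = 0.000183) and *hnrnpab.S* (8.70 to 3.05, log2 -1.65, SE 0.18, adjusted p = 7.05e-05) fell, and *cnot11.L*, a subunit of the deadenylase complex, rose (log2 1.34, SE 0.32, adjusted p = 0.00706), as did the poly(A) polymerase gene *papola.S* (log2 0.89, SE 0.22, adjusted p = 0.00921). Without ovary 2, *cnot11.L* (adjusted p = 0.0606) and *papola.S* (0.0572) missed the threshold, and *papola.S* also did so without ovary 1 (0.0526). At cluster 3, 15 of 106 were higher and 10 lower, where 7.98% of all genes tested were higher and 8.48% lower. The counts were 0 and 0 without ovary 2, 2 and 0 without ovary 3, and 4 lower without ovary 1. Among those higher were *caprin2.L* (log2 1.52, SE 0.31, adjusted p = 0.00817) and *rbpms2.L* (1.41, SE 0.25, adjusted p = 0.00504). Among those lower were *pabpc1l.L*, the embryonic poly(A)-binding protein gene (-1.47, SE 0.32, adjusted p = 0.0108), and *cpeb4.L* (-1.30, SE 0.26, adjusted p = 0.0081). None of these 4 was called without ovary 2, with adjusted p between 0.0922 and 0.137.

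At the early diplotene-like step 43 of 117 were higher and 10 lower, where 23.3% of all genes tested were higher and 20.8% lower. The median log2 change of the listed features was 0.48 against 0.02, but on total counts 17 were higher and 37 lower. Without ovary 2 there were 19 higher, without ovary 3 there were 17 higher and 4 lower, and with the block 23 were lower. *btg4.L*, whose product brings the deadenylase to maternal mRNAs in the mouse, rose from 0.316 to 4.22 per 10000 (log2 4.44, SE 0.84, adjusted p = 0.00174), and *rbpms2.S*, known as Hermes, from 0.303 to 2.98 (log2 3.75, SE 0.39, adjusted p = 6.17e-05). *edc4.L*, of the decapping complex, fell (log2 -1.23, SE 0.20, adjusted p = 0.000811), and so did *papola.S* (-1.20, SE 0.32, adjusted p = 0.0114; 0.0559 without ovary 1). At stage 1 follicle-like cells 14 of 124 were higher and 3 lower, where 6.94% of all genes tested were higher and 4.38% lower. The counts were 0 and 0 without ovary 1 or 3, 9 and 2 without ovary 2, 24 and 12 with the block, and 10 lower on total counts. *zar1l.S* (XBXL10_1g11283), of the Zar1 family, rose from 0.151 to 2.29 (log2 4.58, SE 1.13, adjusted p = 0.0364). The germ plasm gene *nanos1.L* rose between low levels, from 0.0186 to 0.156 (log2 4.11, SE 0.69, adjusted p = 0.0148). By contrast, *tob2.L* (-1.68, SE 0.23, adjusted p = 0.0137) and *stau1.S* (-1.28, SE 0.21, adjusted p = 0.0139) fell. All 4 calls were lost without ovary 1 and without ovary 3. In cells with over 8000 genes 0 of 120 listed features were called by edgeR or by DESeq2, with 8 at an unadjusted p under 0.05 in edgeR. With the block 16 were lower and 0 higher, where 7.32% of all genes were lower.

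Over the 36 sums of germline clusters and large cells, the genes whose levels followed the members most closely were found among 12644 genes by Pearson's r of log2(CPM + 1), as a description, since the sums share ovaries and depth. XBXL10_1g8377 was followed by *eif1.L* (0.968), *mos.L* (0.946), which encodes the kinase that starts oocyte maturation, and *plin2.L* (0.934). *zar1.S* was followed by *ccnb1.2.L* (0.951), a cyclin B gene, *wnt11b.L* (0.944), a vegetally stored maternal mRNA, and *btg3.S* (0.942). For XBXL10_1g800 these were *thap4.S* (0.902), *LOC108709286* (0.864) and *ldb1.L* (0.858), so that the 3 features named *zar1* shared none of their closest genes. *ybx2.L* and *eif4enif1.L* were each other's closest gene (0.887), and both were followed by *rbpms2.L* (0.879 each), with *tbpl2.L* (0.871) for the former and *eif3j.S* (0.883) for the latter. *ybx2.S* went with *snrpc.S* (0.920), *xicof6.1l.L* (0.919) and *mrpl14.L* (0.916), *lsm14b.L* with *eef1a1o.S* (0.905), *LOC100158333* (0.898) and *nlk.2.S* (0.886), and *patl2.L* with *kif22.L* (0.886), *LOC108708048* (0.875) and *sycp2l.L* (0.867). The *cpeb1* copies had the lowest values, *cpeb1.L* with *LOC108713023* (0.819), *nfkbie.L* (0.791) and *banf2.L* (0.786), and *cpeb1.S* with *dis3l2.L* (0.827) and *gyg1.S* (0.821) among its closest.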

How the data were processed

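The authors' deposited files held raw UMI counts of every feature in every barcode, made with Cell Ranger 8.0.1 per the submitters' notes from 10x 3′ libraries of 3 individual ovaries; the genome build and annotation are not given in the sources used here. The deposited counts are not normalized. About 10000 cells were loaded per library. Features without a gene name (0.363% to 0.443% of UMIs) were left out. The submitters' label "germline cells" was not used to class cells.

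The members and gene lists were chosen with earlier results of these data known. Barcodes were clustered in Seurat 5.3.0 when they had from 100 to 8000 genes and no more than 1.5% of UMIs from mitochondrial genes (2000 variable genes, CCA integration of the 3 ovaries, 20 dimensions and resolution 1, then 30 dimensions and resolution 0.5 for the germline), as in the study, except that 139 features of the members and lists were barred, which left 1976 variable genes. Of 26 clusters, those with at least 5 UMIs per 10000 of *ddx4* and *dazl* were taken as germline (lowest 13.2, highest of the others 4.00). The study's stage names were rebuilt from its marker lists, so that classes may differ from the study's own. Of 19253 barcodes, 68 occurred in more than 1 library. Doublets were kept; Scrublet (scanpy 1.11.5) called 48, 6 and 32 cells, and an alternative dropped the top 5% of Scrublet scores in each library.

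UMIs were summed per class and ovary (at least 10 cells), so that n = 3, and tested in edgeR 4.0.16 (quasi-likelihood, TMM, filterByExpr, two-sided, Benjamini-Hochberg over all genes tested, threshold 0.05) on R 4.3.3, without the ovary as a block; log2 changes are given with SE. The scripts were tested on simulated data. Sums of an ovary come from the same animal, which pairs them: deviations from class means correlated at 0.163 to 0.777 within ovaries. DESeq2 1.42.0 and the other alternatives are in the closing section. Limits for a count of 0 are 3 UMIs, and cover counting error only. Shares of cells are expected shares after thinning to 1000 UMIs. Named genes were all members, the 3 genes closest to each (mean of at least 10 CPM), and in each comparison the 2 listed genes with the largest called rise and the 2 with the largest called fall, with at least 20 counts per sum. Some genes that the naming rules picked are not reported here.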

Additional observations from a re-analysis of the deposited data

Results flagged for a closer look

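The barcodes left out for more than 1.5% mitochondrial UMIs also held UMIs of the storage genes, above the somatic level of the same ovary in 3 of 3 ovaries. Their summed level was 6.54 per 10000 in ovary 1 (141 barcodes, 123 UMIs of these genes), 10.9 in ovary 2 (893 barcodes, 4408 UMIs) and 18.5 in ovary 3 (726 barcodes, 3983 UMIs), against 1.42, 3.24 and 5.49 in somatic cells. These barcodes were not classed, and the difference was not tested.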

How the results depend on the processing

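Scaling by total counts and leaving clusters 4, 5 and 10 out of the germline were chosen after seeing the data. Leaving out each ovary in turn, the genes called ranged from 5597 to 9908 between germline and soma (11519 with all ovaries), 991 to 2804 at the leptotene-zygotene-like step (3182), 96 to 1743 at cluster 3 (1896), 3004 to 7661 at the early diplotene-like step (6641) and 0 to 1051 at stage 1 follicle-like cells (1727). The storage genes called higher ranged from 5 to 7, 1 to 3, 0 to 1, 4 to 5 and 0 to 3 in the same order, and those called lower at the leptotene-zygotene-like step from 0 to 1. DESeq2 called 1998 genes at the leptotene-zygotene-like step and 1117 at cluster 3, and clustering with the storage genes allowed gave 5587 at the former. At stage 1 follicle-like cells no filter on low counts gave 3628 genes, and germline clustering at resolution 1.0 gave 0, with 0 storage genes. With the ovary as a replicate block 4217 genes were called at cluster 3, 3879 at stage 1 follicle-like cells and 1234 in cells with over 8000 genes; 8 storage genes were called higher at the early diplotene-like step and at stage 1 follicle-like cells, and 2 lower in cells with over 8000 genes. The block changed no call of a storage gene other than those printed beside the results. At cluster 3, 1 storage gene was called at resolution 1.0, with the storage genes allowed, and on total counts. The cause of these shifts was not tested.

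Directions turned only for changes that were not called. XBXL10_1g8377 was at -0.075 at the leptotene-zygotene-like step under resolution 1.0. *ybx2.L* at cluster 3 was at 0.029 without the filter, 0.065 at resolution 1.0, 0.012 with the storage genes allowed and -0.24 to 0.12 over the ovaries left out. At the early diplotene-like step on total counts *cpeb1.L* was at -0.17 and *ybx2.L* at -0.19, while *cpeb1.S* was at 0.077 without the filter, 0.12 at resolution 1.0, 0.11 with the storage genes allowed and -0.12 to 0.019 over the ovaries. *ybx2.S* at stage 1 follicle-like cells was at -0.074 to 0.76 over the ovaries. In cells with over 8000 genes *cpeb1.L* (-0.031), *ybx2.L* (-0.012) and *zar1.S* (-0.0070) turned on total counts, *eif4enif1.L* (0.00125) in DESeq2, and *ybx2.L* (-0.074 to 0.39), *eif4enif1.L* (-0.059 to 0.0077) and *lsm14b.L* (-0.11 to 0.055) over the ovaries. Of all fitted changes under the alternatives, 706 kept direction and call, 72 lost the call, 22 gained it and 19 turned; of the levels 397 moved by less than 1 SD and 23 by more, and of the shares of cells with a UMI, at other depths of thinning or without it, 94 and 326. In pre-meiotic S-like cells of ovaries 1, 2 and 3 there were 0, 0 and 15 UMIs of *zar1.S*, 0, 0 and 8 of XBXL10_1g800 and 4, 3 and 3 of *patl2.L*, so that changes of these features before stage 1 follicle-like cells may have been missed.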

Other observations

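The germline clusters that could not be placed among the stages also held the storage genes. Cluster 10 (86 cells, with *tenm2.S* among its leading genes) had the highest mean level of *patl2.L* among all classes, with 1.81, 0.883 and 2.28 in ovaries 1, 2 and 3 from 17, 4 and 57 UMIs, and of both *cpeb1* copies, with 2.99, 3.31 and 3.27 for *cpeb1.L* and 2.14, 1.32 and 2.79 for *cpeb1.S*. Its level of *ybx2.S* was 5.02, 6.84 and 7.62, below that of early diplotene-like cells in each ovary.

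Cluster 4 (813 cells), led by *krt18.1.L* and *s100a10.S*, had a summed level of the 10 features of 17.4, 16.0 and 27.2. Cluster 5 (784 cells), with median depths of 848, 1163.5 and 907 UMIs and led by *hbg2.L* and *col3a1.S*, had 19.2, 21.4 and 23.1, of which *ybx2.S* made 9.25, 10.7 and 10.1. The values of cluster 5 lay close to those of cluster 2 (18.3, 21.3 and 21.1) at a much lower depth. With clusters 4, 5 and 10 left out of the germline sums, 8 of the 10 features were again called higher than in somatic cells. These clusters entered no other comparison, and no test was made between them and the stages.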
